A study of Homo sapiens with 3 samples.

Results

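Type I interferon response genes were read in cells of KYSE140, a line established from human squamous cell carcinoma of the esophagus. The study's knockdown cells had received siRNA that targets DLX5, a homeobox transcription factor. The genes are a list of 39 textbook members of the response, matched by symbol to the deposited table of 19266 genes. All 39 were found and had a value, among 17219 genes with a value. The groups are 1 sample labelled as negative control and 2 samples labelled as DLX5 knockdown by siRNA1 and by siRNA2, and they go by those names. All 3 were grown in RPMI1640 with serum. What the control cells received and how long after transfection RNA was taken are not given in the sources used here. With a single line and a single control sample, the control's own spread between cultures is not measured. Levels are FPKM, a fragment count divided by transcript length and by library size, and each sample enters as 1 value, the mean of its 2 replicate columns. An SD is the spread over those 2 columns, which carry no label of their own and may be technical. The series' design text describes the RNA as retinal and the profiles as triplicates, against the sample labels, which were followed here.

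Type I interferons are secreted when a cell senses viral or other foreign nucleic acid, including some transfected RNA. They bind the receptor made of IFNAR1 and IFNAR2, whose kinases JAK1 and TYK2 phosphorylate STAT2. With IRF9, STAT2 enters a complex that binds a DNA element in front of interferon-stimulated genes and raises their transcription. The products sense RNA, block viral entry, translation or replication, attach the ubiquitin-like protein ISG15 to other proteins, or damp the response again. In an siRNA experiment the same genes also report whether the transfected RNA was sensed.

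The DNA element can be seen in the members' own promoters. Of the 39 members, 32 matched a RefSeq promoter (build GRCh38.p14). IFIT2, IFITM2, IRF7, MX2, OAS2, OASL and USP18 did not. The core of the interferon-stimulated response element was searched as GAAA, 2 bases of any kind, GAAA, on both strands, in the 250 bases before each start. It was present in 21 of the 32 members (65.6%), against 3.43% of 13749 genes of the table with a promoter and 3.02% of all 35116 promoters. The share was 66.7% of 24 members that reached 1 FPKM in a sample and 62.5% of 8 that did not. A second core, TTC, 3 bases of any kind, GAA, known from promoters activated by interferon-γ and searched after expression values had been seen, was present in 11 of 32 members (34.4%) and in 7.76% of the table's genes. Matches can overlap, as in BST2, where the cores share bases. A match is a description of letters, not of a bound site. The windows below hold 1 match each in capitals and are shown for some of the members with a match. The siRNA1 columns of ISG15 and IFIT1 overlapped the control. IFITM1, BST2, OAS3 and PARP9 read lower in both siRNA samples without overlap, and HERC5 read higher in both. BST2 rests on an estimated 17, 5 and 4 reads in control, siRNA1 and siRNA2. IRF1 also read lower in both, and its match is of the second core. EIF2AK2 and DTX3L, lower in both as well, had no match of either core in the 250 bases before the start, so they have no window. Bases after a start were not searched. DTX3L lies head to head with PARP9 and overlaps it at the start, and where the PARP9 match lies relative to the DTX3L start was not examined. HERC5, IFIT1 and PARP9 carry the response element on the opposite strand, so it reads TTTC first. Each is given 5′ to 3′ in the direction of its gene.
ISG15 (chr1:1013370-1013419, plus strand): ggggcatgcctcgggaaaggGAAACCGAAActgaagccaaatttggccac
IFIT1 (chr10:89392500-89392549, plus strand): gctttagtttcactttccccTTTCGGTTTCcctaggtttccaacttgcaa
IFITM1 (chr11:313980-314029, plus strand): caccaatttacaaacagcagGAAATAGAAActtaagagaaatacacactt
BST2 (chr19:17405731-17405780, minus strand): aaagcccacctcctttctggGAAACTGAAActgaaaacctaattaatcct
OAS3 (chr12:112938311-112938360, plus strand): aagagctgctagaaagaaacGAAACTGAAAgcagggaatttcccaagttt
PARP9 (chr3:122564312-122564361, minus strand): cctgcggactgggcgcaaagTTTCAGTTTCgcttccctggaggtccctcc
HERC5 (chr4:88456974-88457023, plus strand): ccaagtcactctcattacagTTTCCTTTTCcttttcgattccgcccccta
IRF1 (chr5:132490869-132490917, minus strand): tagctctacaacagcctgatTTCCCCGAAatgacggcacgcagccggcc

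The targeted gene checks the labels. DLX5 (Entrez gene 1749) read 13.0 ± 0.0990 FPKM in the control, 3.63 ± 0.0283 with siRNA1 and 3.25 ± 0.0283 with siRNA2 (SD over 2 columns), and it fell by 1.66 on the log2(FPKM + 1) scale (limma, adjusted p = 0.0210). That call is lost when low genes are kept in (adjusted p = 0.320) and after quantile normalization (0.0531). On simulated data the fit made more false calls than its nominal rate, which bears on each call given here. Squamous markers were expressed in all 3 samples. TP63, the master regulator of squamous epithelium, read 92.1, 90.6 and 79.4 FPKM in control, siRNA1 and siRNA2. The 8 squamous markers summed to 10345, 4031 and 3878 FPKM, and 5 of them, KRT5, KRT14, KRT17, KRT6A and SFN, fell (limma, adjusted p of 0.0140 to 0.0210). Leukocyte markers, 7 of 8 with a value, summed to 11, 7.14 and 7.17 FPKM, most of it CD68 and LYZ. Among them PTPRC, the pan-leukocyte marker CD45, read 1.195, 1.17 and 0.880 FPKM, and CD14 stayed at 0.205 FPKM or less. The 8 fibroblast and endothelial markers summed to 16.4, 9.13 and 7.82 FPKM, nearly all COL1A1, with COL1A2, COL3A1, DCN and LUM at or near 0. These sums moved with DLX5 siRNA, and their part in the interferon gene values was not tested. Depth, estimated from the steps between low FPKM values, was 17950000 to 18700000 reads per replicate column.

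The interferon response genes were expressed at low to moderate levels in every sample, and none changed past the test with DLX5 siRNA. In the control, 8 members stood at 10 FPKM or more, 15 between 1 and 10, 11 between 0.1 and 1, and 5 under 0.1. The summed level of all 39 was 211 FPKM in the control, 183 with siRNA1 and 180 with siRNA2. The 8 members at 10 FPKM or more in the control were IFITM3, TAP1, EIF2AK2, IFITM1, STAT2, IRF9, DTX3L and PARP14, in falling order. MX1, MX2, OAS1, OAS2, RSAD2, CMPK2 and IFI44L, picked out here for their low values, were at 0.220 FPKM or less in every sample, while ISG15, IFI6, HERC5 and USP18 stood above 1 FPKM in each. In bulk RNA, fewer expressing cells and less RNA per cell cannot be told apart.

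**Figure D1:**
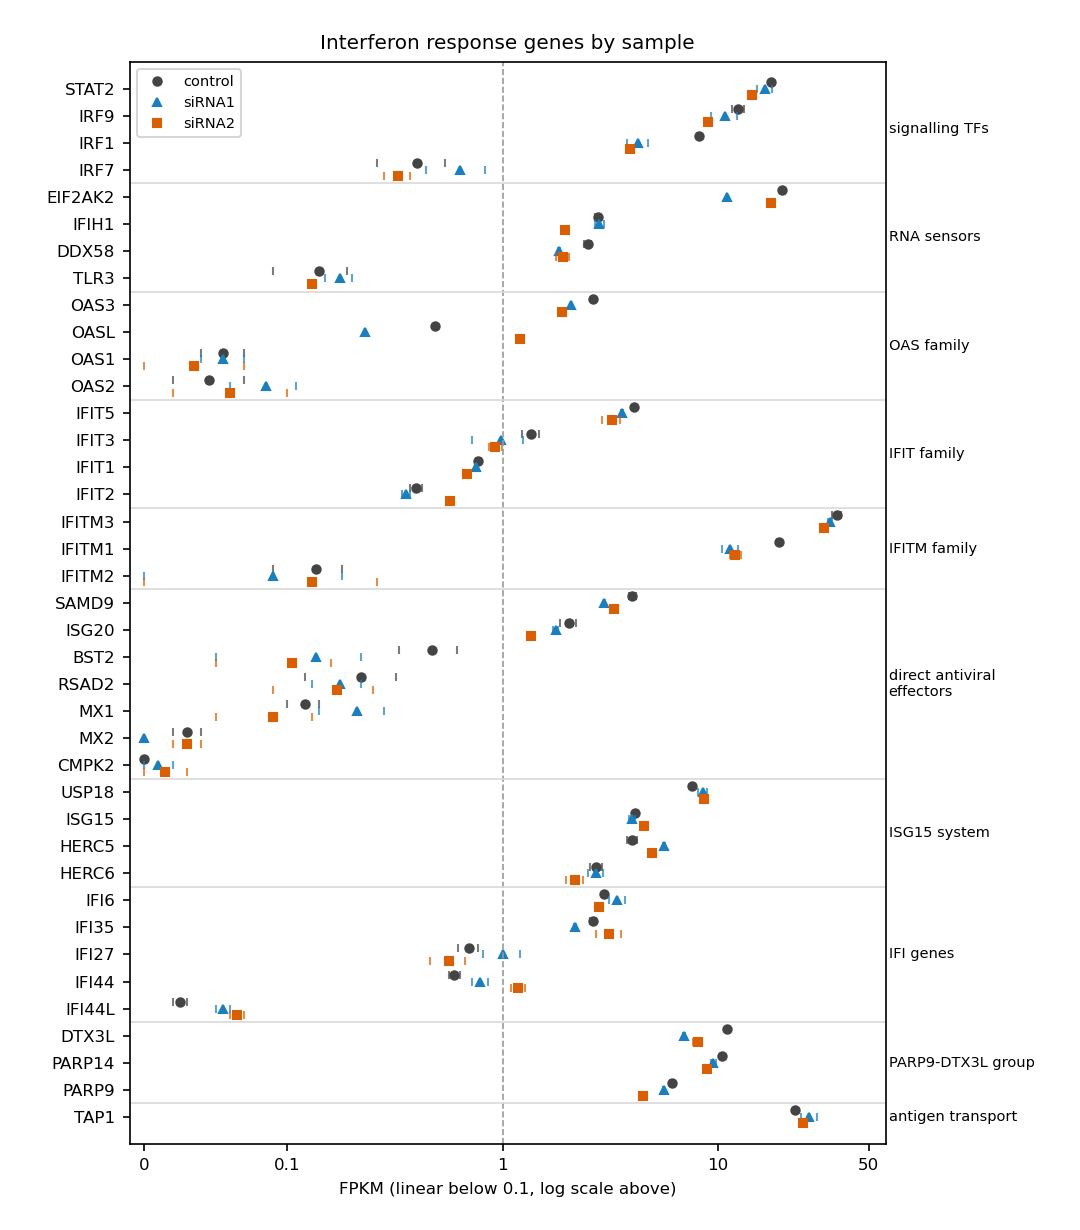
Level of each of the 39 members in FPKM (x axis, linear below 0.1 and log scale above), grouped by role, with filled symbols for the sample mean and short bars for its replicate columns. The dashed line marks 1 FPKM. The 3 samples lie close together for most members, and 13 members stay left of the line in every sample.

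Of the 39 members, 26 reached 1 FPKM in at least 1 sample and were tested (66.7%, against 70.1% of all genes with a value). In limma over 12078 genes, control against the 2 siRNA samples, 0 of 26 passed an adjusted p of 0.05. Of all genes tested 3.09% passed, 1.67% lower and 1.42% higher, and with 26 members a count of 0 is close to that share. At an unadjusted p under 0.05 there were 3 of 26 members, IRF1, IFITM1 and DTX3L, all lower, against 19.5% of all genes. The test has 1 residual degree of freedom, the gap between siRNA1 and siRNA2, beside 5.16 prior degrees of freedom, so its error comes mostly from the spread shared over genes of like expression.

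Most of the 26 tested members were somewhat lower, by small amounts. With siRNA1, 19 of 26 were below the control by any size (46.3% of all genes) and with siRNA2 also 19 of 26 (48.3% of all genes). After quantile normalization the count was 17 of 26 with either siRNA. The median log2 difference from the control was -0.13 with siRNA1 and -0.23 with siRNA2, against 0.03 and 0.01 over all genes tested. With both siRNAs in the fit it was -0.18, against 0.01, and -0.0458 over all 39 members without the filter on low values. The 2 comparisons share the control sample, so a control that stood high would move both. No member was 2-fold lower or higher with siRNA1 (3.61% of all genes were) or with siRNA2 (2.96%) on the log2(FPKM + 1) scale. At 1.5-fold, 4 members were lower with siRNA1 (IRF1, IFITM1, EIF2AK2 and DTX3L; 14.2% of all genes passed in either direction) and 2 with siRNA2 (IRF1 and IFITM1; 11.4% of all genes), and none was higher on that scale, which shrinks the differences of low genes. By the ratio of FPKM itself, OASL was 2.11-fold lower with siRNA1 and 2.47-fold higher with siRNA2. By the same ratio, IRF1 was 2.09-fold lower and IFI44 1.98-fold higher with siRNA2.

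**Figure D2:**
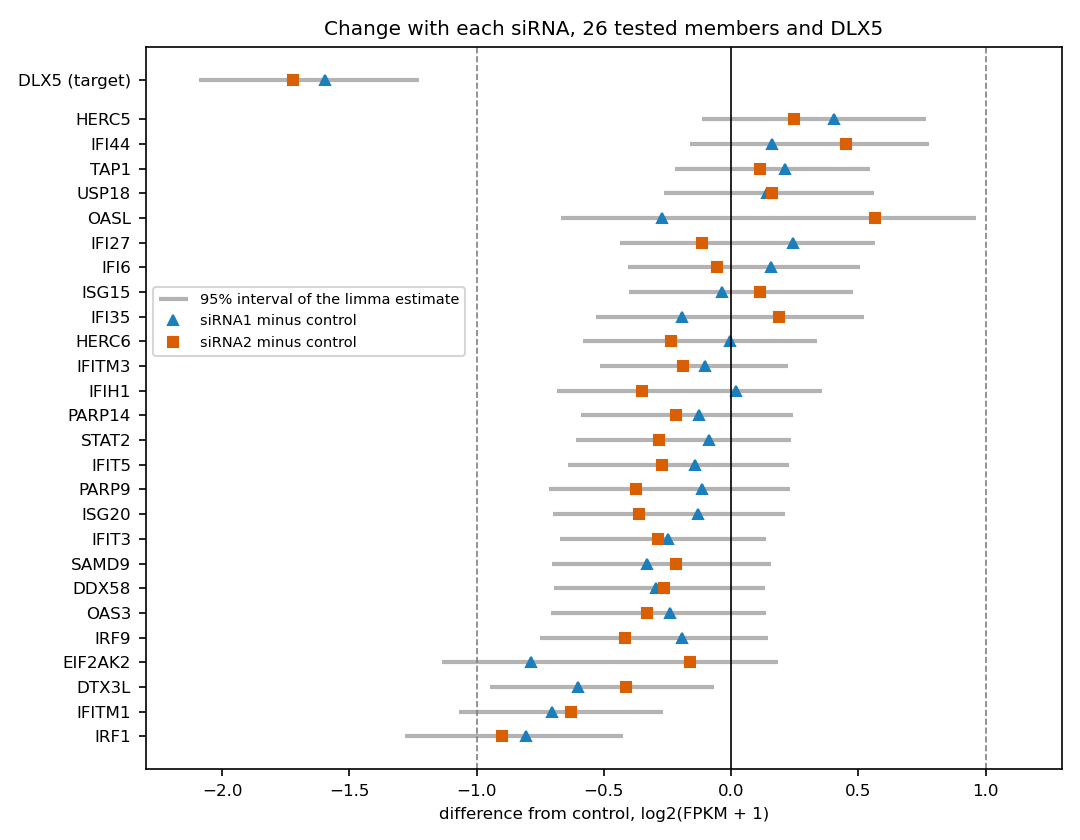
Difference from control on the log2(FPKM + 1) scale (x axis) for siRNA1 (triangles) and siRNA2 (squares), for the 26 tested members and DLX5, with the 95% interval of the limma estimate as a grey bar and 2-fold limits as dashed lines. IRF1, IFITM1 and DTX3L have intervals below 0, and DLX5 lies beyond the 2-fold line while every member lies inside it.

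Among the signalling transcription factors, IRF1 showed the largest difference. IRF1 activates antiviral and antigen presentation genes and is itself induced by interferon-γ and NF-κB. IRF1 (Entrez gene 3659, chromosome 5, 131817301 to 131826465, minus strand, hg19) read 8.27 and 8.01 FPKM in the control columns, 3.76 and 4.71 with siRNA1, and 4.05 and 3.74 with siRNA2. Both siRNA samples were below the control without overlap and overlapped each other. The log2 difference of -0.85 ± 0.18 (SE) did not pass (limma, adjusted p = 0.0642, 95% interval -1.28 to -0.42).

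STAT2, the most abundant of these factors, read 17.6 ± 0.0141 FPKM in the control, 16.5 ± 1.88 with siRNA1 and 14.3 ± 0.580 with siRNA2, at a log2 difference of -0.19 ± 0.17 (SE; limma, adjusted p = 0.619). IRF9, the DNA-binding partner of STAT2, read 12.4, 10.7 and 9.03 FPKM (limma, adjusted p = 0.436). The siRNA1 columns of both genes overlapped the control, while those of siRNA2 lay below it. IRF9 shares its whole transcript with AL136295.5, a gene annotated in GENCODE v29. Whether the authors' annotation held that gene is not known. If it did, the reads of IRF9 could be split or pooled by their counting. IRF7, which amplifies interferon production in infected cells, stayed at 0.400, 0.635 and 0.325 FPKM.

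The RNA sensors differed in their pattern. EIF2AK2 encodes PKR, the kinase that is activated by double-stranded RNA and stops translation. EIF2AK2 (Entrez gene 5610, chromosome 2, 37332281 to 37384190, minus strand, hg19) read 19.6 and 19.96 FPKM in the control columns, 11.04 and 11 in those of siRNA1, and 17.4 and 17.7 with siRNA2. siRNA1 was 1.79-fold and siRNA2 1.13-fold below the control, with no overlap between any of the 3 samples. Because the siRNA samples differ, the estimate of -0.47 ± 0.27 (SE) has a wide interval, -1.13 to 0.18 (limma, adjusted p = 0.407). DDX58, which encodes the cytosolic sensor RIG-I, read 2.48 FPKM in the control, 1.83 with siRNA1 and 1.90 with siRNA2 (limma, adjusted p = 0.439). IFIH1, which encodes the long double-stranded RNA sensor MDA5, read 2.76, 2.81 and 1.95 FPKM (adjusted p = 0.732). TLR3, the endosomal sensor, stayed at 0.130 to 0.175 FPKM.

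In the OAS family, enzymes that make the activator of RNase L, OAS3 was the main member. OAS3 read 2.63 ± 0.0495 FPKM in the control, 2.08 ± 0.00707 with siRNA1 and 1.89 ± 0.0990 with siRNA2, both below the control without overlap (log2 difference -0.29 ± 0.17 SE; limma, adjusted p = 0.437). OAS1 and OAS2 were near the limit of reading, at 0.0350 to 0.0850 FPKM, which is an estimated 2 to 11 reads per sample over both columns. OASL, a catalytically inactive relative that enhances RIG-I signalling, went opposite ways with the 2 siRNAs. OASL read 0.490 and 0.480 FPKM in the control columns, 0.230 in both siRNA1 columns, and 1.22 and 1.18 with siRNA2. These rest on an estimated 36, 17 and 90 reads. The estimate over both siRNAs was 0.15 ± 0.34 (SE; limma, adjusted p = 0.857).

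The IFIT family, which binds viral RNA ends, showed small differences. IFIT5, the most abundant, read 4.07 ± 0.0354 FPKM in the control, 3.59 ± 0.0566 with siRNA1 and 3.20 ± 0.438 with siRNA2 (limma, adjusted p = 0.590). IFIT3 read 1.35, 0.980 and 0.925 FPKM (adjusted p = 0.450). IFIT1 and IFIT2 were under 1 FPKM in every sample, with IFIT1 at 0.770, 0.750 and 0.680 and IFIT2 at 0.395, 0.355 and 0.570. The siRNA2 columns of IFIT2 lay above those of both other samples, on an estimated 50, 45 and 73 reads. IFIT1 is known as one of the most strongly induced genes of the response, and its siRNA1 columns overlapped the control while those of siRNA2 lay just below it.

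The IFITM family, membrane proteins that block virus entry, held the most abundant member of all. IFITM3 read 35.6 ± 2.45 FPKM in the control, 33.2 ± 0.912 with siRNA1 and 31.1 ± 1.10 with siRNA2 (log2 difference -0.14 ± 0.15 SE; limma, adjusted p = 0.663). IFITM1 (Entrez gene 8519, chromosome 11, 313991 to 315272, plus strand, hg19) read 18.7 and 19.6 FPKM in the control columns, 12.4 and 10.4 with siRNA1, and 11.3 and 12.8 with siRNA2. Both siRNA samples were below the control without overlap, 1.68-fold and 1.59-fold lower, and the log2 difference of -0.67 ± 0.16 (SE) did not pass (limma, adjusted p = 0.0971, 95% interval -1.07 to -0.27). IFITM2 was at 0.0900 to 0.135 FPKM. The 3 genes are near-identical copies in part. Of IFITM1's stretches of 50 bases, 42.3% also occur in another gene, 39.0% in IFITM2, so how the reads were shared between them is uncertain.

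Direct antiviral effectors were mostly at or near the limit of reading. SAMD9, a restriction factor of poxviruses, read 3.99 ± 0.212 FPKM in the control, 2.97 ± 0.0354 with siRNA1 and 3.30 ± 0.113 with siRNA2 (limma, adjusted p = 0.466). ISG20, an RNA exonuclease, read 2.02, 1.76 and 1.35 FPKM (adjusted p = 0.537). BST2, also called tetherin, which holds budding virions on the cell surface, read 0.330 and 0.610 FPKM in the control columns, 0.05 and 0.220 with siRNA1, and 0.160 and 0.05 with siRNA2. The BST2 columns of the control lay above those of both siRNA samples, on an estimated 17, 5 and 4 reads, and the gene was not tested. MX1, the dynamin-like antiviral GTPase, read 0.120, 0.210 and 0.0900 FPKM, and RSAD2, which encodes viperin, read 0.220, 0.175 and 0.170. The columns of control and either siRNA overlapped for MX1 and RSAD2. MX2 was listed at 0 with siRNA1 and at 0.0300 FPKM in the other samples, and CMPK2, the neighbour of RSAD2, had 0 in the control, 0.01 FPKM with siRNA1 and 0.0150 with siRNA2.

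The ISG15 system attaches the ubiquitin-like ISG15 to proteins and removes it. USP18, the enzyme that removes it and an inhibitor at IFNAR2, read 7.60 ± 0.0283 FPKM in the control, 8.48 ± 0.594 with siRNA1 and 8.61 ± 0.438 with siRNA2 (limma, adjusted p = 0.690). USP18 shares 23.4% of its 50-base stretches with other genes, mainly USP41. ISG15 itself read 4.12, 3.99 and 4.54 FPKM (adjusted p = 0.932). HERC5, the main ligase for ISG15, read 3.98 FPKM in the control, 5.61 with siRNA1 and 4.91 with siRNA2. Both siRNA samples of HERC5 stood above the control without overlap, at a log2 difference of 0.33 ± 0.18 (SE; limma, adjusted p = 0.396). HERC6, its close relative, read 2.72, 2.71 and 2.16 FPKM (adjusted p = 0.782).

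The IFI genes gave no common direction. IFI6, a mitochondrial and endoplasmic reticulum protein that opposes apoptosis, read 2.95 ± 0.0212 FPKM in the control, 3.4 ± 0.424 with siRNA1 and 2.79 ± 0.0778 with siRNA2 (limma, adjusted p = 0.913). IFI35 read 2.63, 2.17 and 3.13 FPKM (adjusted p = 0.996), IFI27 read 0.695, 1 and 0.565 (adjusted p = 0.901), and IFI44 read 0.595, 0.785 and 1.18 (adjusted p = 0.455). The IFI44 columns of the siRNA samples lay above the control, with siRNA2 highest, on an estimated 37, 49 and 73 reads. IFI44L stood at 0.0250, 0.0550 and 0.0650 FPKM, 2.2-fold higher with siRNA1 and 2.6-fold higher with siRNA2. Its siRNA columns lay above the control, on an estimated 5, 12 and 14 reads.

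In the PARP9 and DTX3L group, whose products form an ADP-ribosylating ubiquitin ligase, all 3 members read lower with both siRNAs. DTX3L, the ligase subunit (Entrez gene 151636, chromosome 3, 122283185 to 122294050, plus strand, hg19), read 11.1 and 10.99 FPKM in the control columns, 6.87 and 7.02 with siRNA1, and 8.43 and 7.65 with siRNA2. DTX3L was 1.59-fold and 1.37-fold lower without overlap, and the log2 difference of -0.51 ± 0.18 (SE) did not pass (limma, adjusted p = 0.201). PARP9, its partner, whose gene lies head to head with DTX3L and overlaps it at the start, so that reads there cannot be assigned without strand, read 6.13, 5.59 and 4.5 FPKM (adjusted p = 0.557). PARP14, the most abundant over the 3 samples, read 10.5 ± 0.148, 9.49 ± 0.346 and 8.86 ± 0.0354 FPKM (adjusted p = 0.640). TAP1, which carries peptides into the endoplasmic reticulum for MHC class I, went the other way, at 22.8 ± 0.552 FPKM in the control, 26.6 ± 3.18 with siRNA1 and 24.7 ± 0.424 with siRNA2 (adjusted p = 0.633).

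**Figure D3:**
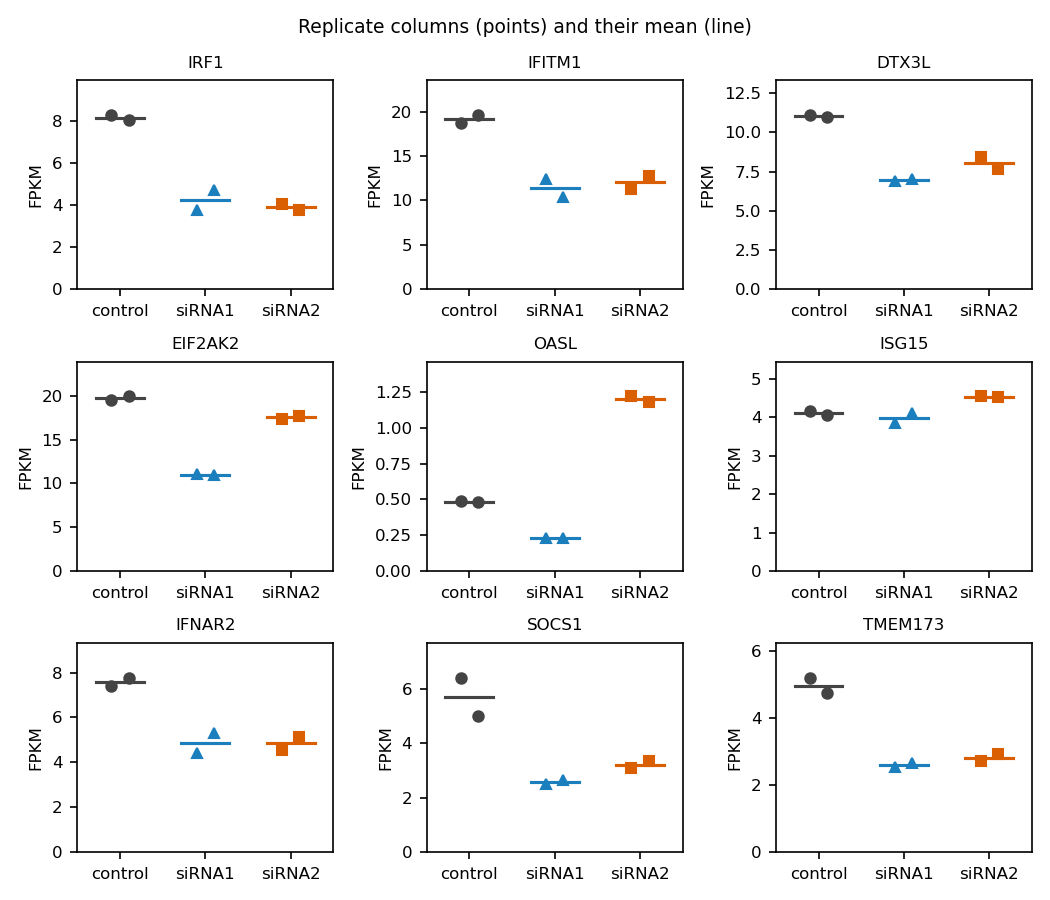
FPKM (y axes, each from 0) of 6 members and 3 other pathway genes by sample, with replicate columns as points and their mean as a line. IRF1, IFITM1, DTX3L, IFNAR2, SOCS1 and TMEM173 are lower in both siRNA samples, EIF2AK2 is lowest with siRNA1, OASL is lowest with siRNA1 and highest with siRNA2, and ISG15 is nearly level.

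The second comparison asked whether the 2 siRNA transfections differ in interferon response genes. EIF2AK2 and OASL stood higher with siRNA2 than with siRNA1, IFIH1 and PARP9 stood lower, and the median over the list differed little. With 1 sample each there is no test between siRNA1 and siRNA2 across cultures. No member differed by 2-fold on the log2(FPKM + 1) scale, where 0.472% of all genes did, so 0 of 26 is close to that share. At 1.5-fold on that scale 2 were higher with siRNA2, EIF2AK2 and OASL, and none lower, against 3.73% of all genes. EIF2AK2 was 1.59-fold higher with siRNA2 than with siRNA1. OASL was 5.22-fold higher in FPKM, which is 0.84 on the log2(FPKM + 1) scale because its values are low. Of the 26 tested members, 16 read lower with siRNA2 than with siRNA1 (53.3% of all genes did), and the median difference was -0.09, against -0.02 over all genes. With the replicate columns taken as separate values, whose spread lies within samples, 8 of 26 members differed between the siRNAs, 5 higher and 3 lower with siRNA2 (limma, adjusted p under 0.05), where 40.4% of all genes did. Higher with siRNA2 by that measure were EIF2AK2 (limma, adjusted p = 1.02e-05), OASL (0.000166), IFI35 (0.0144), DTX3L (0.0383) and IFI44 (0.0479). Lower with siRNA2 were IFIH1 (0.00571), PARP9 (0.0107) and IFI27 (0.0491). IRF1 (0.442), IFITM1 (0.482), DDX58 (0.803), USP18 (0.833) and ISG15 (0.106) were among those that did not pass. Such p-values do not measure the spread between transfections.

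The authors' deposited table gives its own comparisons. At a DEGseq q-value under 0.05 and a 2-fold change, the authors' deposited table has 2 of 37 members with siRNA1 against the control (OASL and BST2, both lower; 5.41%, against 8.57% of 16014 genes). For siRNA2 against the control, the authors' deposited table has 4 of 38 (IRF1 and BST2 lower, OASL and IFI44L higher; 10.5%, against 7.14% of 15961 genes). Between the siRNAs, the authors' deposited table has 3 of 38 (OASL higher, IRF7 and MX1 lower with siRNA2; 7.89%, against 3.09% of 15953 genes). Apart from IRF1, each of these genes rests on an estimated 4 to 90 reads per sample.

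Other genes of the pathway were read from lists. The ligands were barely expressed. Of 19 ligand and receptor genes, 15 had a value and 7 were tested, and none passed (limma, with 2 lower at an unadjusted p under 0.05). IFNB1, the first interferon made after RNA sensing, read 0.0350, 0.0700 and 0.0350 FPKM in control, siRNA1 and siRNA2. The listed IFNA and IFNL genes were at 0.340 FPKM or less or had no value. IFNE, the epithelial type I interferon, was the exception, at 2.98, 1.81 and 1.60 FPKM (limma, adjusted p = 0.154). The receptor subunit IFNAR2 read 7.58 ± 0.255 FPKM in the control, 4.85 ± 0.629 with siRNA1 and 4.85 ± 0.424 with siRNA2 (log2 difference -0.55 ± 0.17 SE; adjusted p = 0.153), while IFNAR1 read 8.38, 8.63 and 8.54 (adjusted p = 0.940). The interferon-γ receptor chain IFNGR1 read 18.2, 14.5 and 13.5 FPKM (adjusted p = 0.307) and IFNGR2 read 16.9, 18.9 and 17.9 (adjusted p = 0.749).

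Of 17 signalling genes and inhibitors, 15 were tested, and 1 rose and 0 fell, against 1.42% and 1.67% of all genes. PTPN11, which encodes the phosphatase SHP2, rose from 23.4 ± 0.0566 FPKM to 66.8 ± 1.41 with siRNA1 and 66.3 ± 2.76 with siRNA2 (limma, adjusted p = 0.0209, but 0.0531 after quantile normalization and 0.320 with low genes kept in). The feedback inhibitors SOCS1 and SOCS3 read lower without passing. SOCS1 read 5.70 FPKM in the control, 2.57 with siRNA1 and 3.22 with siRNA2 (adjusted p = 0.0953), and SOCS3 read 4.86, 2.43 and 3.01 (adjusted p = 0.131). The kinase TYK2 read 24.1, 19.8 and 19.6 FPKM (adjusted p = 0.397) and JAK1 31.3, 30.5 and 30.5 (adjusted p = 0.929). STAT3, picked out after its values were seen, read 31.6 and 28.2 FPKM in control and siRNA1 and 50.4 with siRNA2 (adjusted p = 0.728).

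Of 24 nucleic acid sensing genes, 18 were tested, and 1 rose and 0 fell, against 1.42% and 1.67% of all genes. ZCCHC3, a co-sensor for RIG-I, MDA5 and cGAS, rose from 7.36 ± 0.0707 FPKM to 21.4 ± 0.0283 and 18.7 ± 0.170 (limma, adjusted p = 0.0247, but 0.0591 after quantile normalization and 0.320 with low genes kept in). TMEM173, which encodes the DNA-sensing adaptor STING, read 4.96 FPKM in the control, 2.60 with siRNA1 and 2.81 with siRNA2 (adjusted p = 0.103). The kinase IKBKE read 3.08, 1.67 and 1.44 FPKM (adjusted p = 0.107), and the adaptor TRAF3 read 6.76, 11.9 and 11.7 (adjusted p = 0.0852). The adaptor MAVS, downstream of RIG-I and MDA5, read 10.7, 10.8 and 10.1 FPKM (adjusted p = 0.934).

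Of 47 other interferon-stimulated genes, 32 were tested, and 1 rose and 1 fell, against the same shares of all genes. LAMP3, a lysosomal membrane protein, fell from 65.2 ± 1.36 FPKM to 29.9 ± 0.0990 and 28.2 ± 0.962 (limma, adjusted p = 0.0247, but 0.0573 after quantile normalization and 0.320 with low genes kept in). OGFR, the opioid growth factor receptor, rose from 4.58 ± 0.339 FPKM to 19.7 ± 2.73 and 20.4 ± 0.0849 (adjusted p = 0.0181, but 0.320 with low genes kept in). PML, the organizer of nuclear bodies, read 20.7, 11.7 and 13.0 FPKM (adjusted p = 0.0926), and the DNA sensor IFI16 read 23.4, 35.85 and 36.4 (adjusted p = 0.0975). The median log2 difference of the 32 was -0.18, against 0.01 over all genes, and the chemokine genes CXCL10 and CXCL11 stayed at 0.0700 FPKM or less. Of 17 genes of MHC class I presentation, 16 were tested and none passed (limma, with 1 lower at an unadjusted p under 0.05). That gene is NLRC5, the transactivator of MHC class I genes, at 2.10 ± 0.00707 FPKM in the control, 1.05 ± 0.0495 with siRNA1 and 1.03 ± 0.0141 with siRNA2 (adjusted p = 0.123). TAPBP read 34.7, 29.1 and 27.6 FPKM (adjusted p = 0.378), PSMB10 12.1, 8.38 and 9.79 (adjusted p = 0.323) and ERAP2 2.54, 1.99 and 2.07 (adjusted p = 0.537). With low genes kept in, 0 genes of the table are called, the keratins included.

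**Figure D4:**
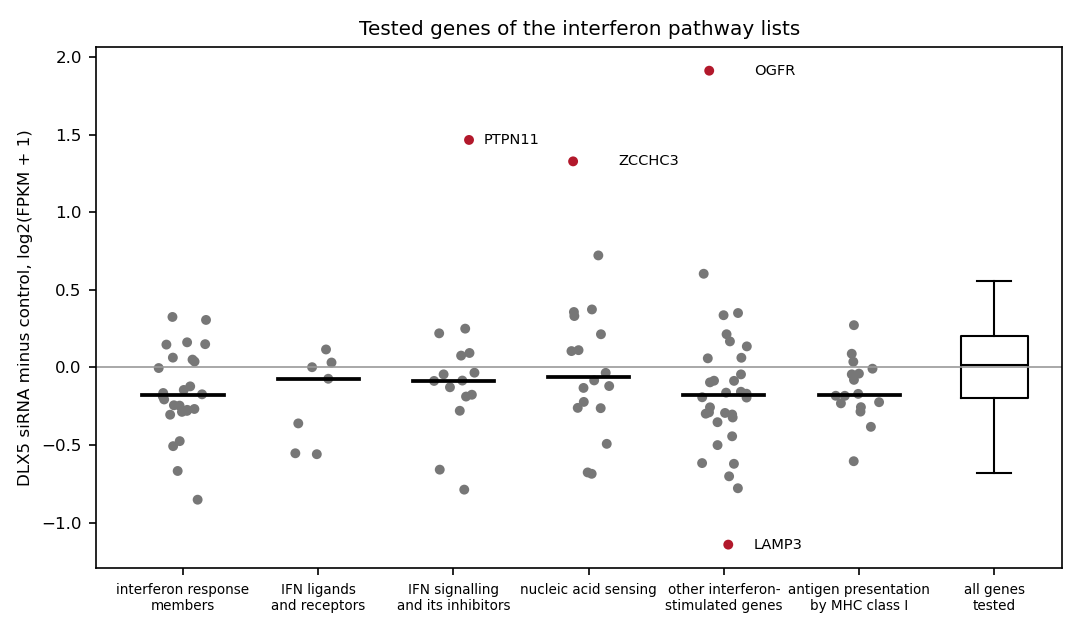
Log2 difference between DLX5 siRNA and control (y axis, log2(FPKM + 1) scale) of each tested gene by list, with the list's median as a black line, genes past an adjusted p of 0.05 in red, and at the right all genes tested as a box (quartiles) with whiskers from the 5th to the 95th percentile. Of the tested genes in these lists, PTPN11, ZCCHC3, OGFR and LAMP3 are red, and none of the interferon response members is.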

How the data were processed

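The authors deposited 1 table with FPKM per gene, 2 replicate columns and their mean per sample, and, per the file headers, log2 fold changes, p-values and DEGseq q-values between samples. The build hg19 and the tools RSEM 1.2.12, HISAT2 2.0.4, DESeq 3.4 and Bowtie2 2.2.5 are named, without roles, per the submitters' processing notes. Of the columns with values per sample, 2 share a heading and were not used; column 1 of a siRNA sample was taken as 2 times its mean minus column 2. FPKM was analysed as log2(FPKM + 1) for the 12078 genes that reached 1 FPKM in any sample, with limma 3.58.1 in R 4.3.3 (trend, 5.16 prior degrees of freedom) and Benjamini-Hochberg adjustment over all genes at 0.05. Log2 differences understate the change of low genes; folds are ratios of FPKM. The script was tested on simulated data, where false calls exceeded the nominal rate. Read numbers are estimates, and the strand setting is unknown. Stretches of 50 bases came from GENCODE v29 transcripts.

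Members and lists were chosen with earlier results of these data known. Values in full go to members that were called, 2-fold different, or highest in their role group, and to up to 4 genes per list that lay on one side of the control with either siRNA, largest smaller change first. Other genes with values, including IRF1, IFITM1, DTX3L, OASL, BST2 and HERC5, were chosen after their values were seen. Some genes of the lists are not reported here.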

Additional observations from a re-analysis of the deposited data

How the results depend on the processing

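The count of members called, 0, stayed 0 with a pseudocount of 0.1, without the filter, with a mean of at least 1 FPKM, with quantile normalization and with centred samples. It became 2 at an adjusted p under 0.10 (IRF1 and IFITM1), 3 at an unadjusted p under 0.05, and 18 (14 lower, 4 higher) with replicate columns as separate values, a spread within samples that called 3932 genes higher and 3592 lower in all. The median of -0.18 moved to -0.0458 without the filter, which adds the 13 members under 1 FPKM. In that fit IRF1, BST2, IFITM1 and IFIT3 had an unadjusted p under 0.05 (limma), and none of them passed adjustment. DLX5 kept its log2 change but lost its call without the filter (-1.66, adjusted p = 0.320) and after quantile normalization (-1.63, adjusted p = 0.0531). Genes called in the whole table numbered 373, against 290 with a pseudocount of 0.1, 0 without the filter, 393 with a mean of at least 1 FPKM, 22 with quantile normalization and 316 with centred samples. The counts of 2-fold members, 0 in each comparison, became 4, 2 and 2 at 1.5-fold for siRNA1 against control, siRNA2 against control and siRNA2 against siRNA1. With replicate columns as separate values, a limma adjusted p under 0.05 replaced the fold limit, and 10, 18 and 8 members passed. Members could pass there with differences far under 2-fold. Between the siRNAs 40.4% of all genes passed, and the shares for the other 2 comparisons were not counted. With a pseudocount of 0.1 the counts of 2-fold members became 2 for siRNA2 against control (IRF1 and OASL) and 1 for siRNA2 against siRNA1 (OASL). Leaving out a siRNA sample leaves no residual degree of freedom, so the called count has no value there; OASL then read -0.27 with siRNA1 alone and 0.57 with siRNA2 alone. Otherwise the causes were not tested. No paired analysis was possible because the control's label has no number and the numbers of the other samples name the siRNAs. The 13 members under 1 FPKM rest on an estimated 0 to 128 reads per sample and were tested only without the filter.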
